A study of Mus musculus with 8 samples.

Results

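Potassium channel genes were followed in cultured mouse neurons that lacked NUAK1, an AMPK-related kinase involved in axon branching. The members were the protein-coding genes whose symbol begins with Kcn and that reached at least 10 counts in 4 or more of the 8 libraries. This rule took 73 of the 92 protein-coding Kcn genes in the count table, which lists 32726 gene identifiers in all. The members belonged to 21 subfamilies, from Kcna to Kcnv.

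The 8 libraries held poly-A RNA from primary neurons at day 5 in culture, 4 from constitutive Nuak1 knockout (KO) embryos and 4 from wild-type (WT) embryos. According to the methods, each library came from its own animal on a C57Bl/6JRj background, and the neurons of both genotypes grew in serum-free medium. The labels give the tissue of all libraries as cortex or hippocampus without saying which. The Nuak1 deletion was present in every cell of the KO embryos, so that the cultures carried it from before plating. The labels also give a sequencing lane (A for KO1, KO4, WT1 and WT3, B for the other 4) and a strain code (BJ for KO1 to KO3, BK for KO4, WT2 and WT4, BO for WT1, BQ for WT3). The BJ code was thus seen in KO alone and the BO and BQ codes in WT alone. Only BK held both genotypes, so a model with the strain code as a term compares KO4 alone with WT2 and WT4.

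Potassium channels let potassium flow down its gradient and so set the resting potential, shape the action potential and limit repetitive firing. Each pore carries a selectivity filter, a short loop with a glycine-tyrosine-glycine or glycine-phenylalanine-glycine core that holds potassium ions and excludes sodium. Voltage-gated (Kv) pores of the Kcna to Kcnd, Kcnq and Kcnh subfamilies open on depolarisation. Calcium- and sodium-activated pores (Kcnma, Kcnn, Kcnt and the related Kcnu) couple firing to internal ions, inward rectifiers (Kir, Kcnj) and K2P leak channels (Kcnk) act near rest, silent Kv subunits (Kcnf, Kcng, Kcns, Kcnv) work only inside mixed channels, and auxiliary subunits (Kcnab, Kcne, Kcnip, Kcnmb and the regulator Kcnrg) form no pore.

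The filter is visible in the genes themselves. An in-frame search of the longest complete coding sequence of each gene (GENCODE vM1, coding strand only) looked for 5 codons around that core, namely any codon, a codon with T in the middle, GGN, then TAN or TTN, then GGN. It found a match in 50 of 52 pore-forming members, in all 7 silent Kv subunits with a complete sequence and in 0 of 12 auxiliary subunits. Of the other protein-coding genes, 4.99% held a match. The pore-forming members without a match were Kcnma1, whose model here covers 699 coding bases, and Kcnk1. A match describes letters and nothing more. The following stretches are shown for members of 6 classes that come up in the genotype comparison, because they are what these otherwise different genes share. Capitals mark the 15 matching bases, and the gene span on GRCm38 precedes each gene's name.
chr2:62693410-63184287 Kcnh7: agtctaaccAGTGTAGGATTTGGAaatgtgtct
chr1:15286925-15723751 Kcnb2: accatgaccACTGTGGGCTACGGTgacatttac
chr1:140245657-140614045 Kcnt2: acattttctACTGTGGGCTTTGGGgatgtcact
chr2:55411798-55598145 Kcnj3: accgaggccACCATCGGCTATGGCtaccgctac
chr17:83574023-83631995 Kcng3: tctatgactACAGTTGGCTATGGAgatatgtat
chr19:6925662-6934883 Kcnk4, stretch 1: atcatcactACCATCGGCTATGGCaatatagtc
chr19:6925662-6934883 Kcnk4, stretch 2: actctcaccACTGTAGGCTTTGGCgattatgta
Kcnk4 is shown with 2 stretches because a K2P subunit carries a pair of pore loops in 1 chain. Kcnh7 and Kcnt2 have the TT codon (phenylalanine) where Kcnb2, Kcnj3 and Kcng3 have a TA codon (tyrosine), and Kcnk4 has one of each.

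Nuak1 itself was counted at 2.47, 2.72, 1.96 and 2.35 CPM (counts scaled by the library total) in KO1 to KO4 and at 51.6, 68.5, 82.6 and 75.3 in WT1 to WT4. All libraries matched their genotype label, with a log2 fold change (KO over WT) of -4.89 ± 0.13 (SE, adjusted p = 1.24e-07). Library totals ran from 31247078 to 67155004 counts, with a median of 39224504. All 12 neuronal markers were detected (10 counts in at least 4 libraries), and their sum ran from 5487 to 6166 CPM over the KO libraries and from 5583 to 6309 CPM over the WT libraries. Markers of other cell types were also counted. Of 10 astrocyte markers 9 were detected, with sums of 978 to 1854 CPM (KO) and 1030 to 1578 CPM (WT). Of 12 microglial markers 9 were detected, with sums of 16.7 to 74.3 CPM (KO) and 22.4 to 40.8 CPM (WT) and Tmem119 at 10 counts or fewer throughout. These lists leaned the other way from the channel genes, with 8 of 9 microglial markers above 0 (median log2 fold change 1.34, 0 at an unadjusted p under 0.05 by edgeR) and 7 of 9 astrocyte markers (median 0.076, again 0 at that p). Of 8 progenitor markers 6 were above 0 (median 0.049), with sums of 369 to 457 CPM (KO) and 279 to 384 CPM (WT) and Top2a, a gene of dividing cells, higher (0.47, unadjusted p = 0.0335 by edgeR). Of 12 tested interneuron markers 8 were above 0 (median 0.25), with sums of 516 to 744 CPM (KO) and 521 to 692 CPM (WT) and Calb2 higher (0.66, unadjusted p = 0.00406 by edgeR). Of the 12 neuronal markers 7 were below 0 (median -0.04), among them Slc17a7, the vesicular glutamate transporter (-0.32, unadjusted p = 0.0185 by edgeR). The part of cell composition in the channel values was not tested. KO1 and WT1 stood apart from the other 6 libraries on the first principal component (-27.6 and -28.4 against 0.073 to 22.6), a component with 51.9% of the variance. The surrogate variable in the model followed this split (-0.558 and -0.621 against 0.048 to 0.392). No 2 libraries agreed within sampling noise.

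Together the 73 members took 0.311 to 0.387% of the counts in KO and 0.340 to 0.432% in WT. Kcnma1, the pore of the large-conductance BK channel, took 9.28% of member counts, Kcnq3, a subunit of the M-current that restrains repetitive firing, 6.09%, and Kcnk9, the TASK3 leak channel, 5.67%. By class, the Kv7 and EAG-family pores (Kcnq and Kcnh) took 32.6% of member counts, the Kv1 to Kv4 pores 25.8%, the calcium- or sodium-activated pores 14.6%, the K2P channels 12.3%, the auxiliary subunits 5.36%, the silent subunits 4.74% and the Kir channels 4.56%.

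Levels of different genes were compared per kilobase of exon, over the 67 members whose gene model includes untranslated exons. Kcnma1 stood highest, at 67.0 ± 15.7 CPM per kilobase in KO and 75.2 ± 15.4 in WT (mean ± SD, n = 4 each). Kcnk10, the mechanosensitive TREK2 channel, followed at 43.6 ± 4.66 and 45.4 ± 7.19. Kcna2, a Kv1 channel of axons, was at 27.3 ± 6.0 and 29.0 ± 6.22. Kcna6 and Kcnd3, an A-type channel, were at means over the 8 libraries of 23.9 and 18.7 CPM per kilobase. Kcnk10 and Kcna2 are named for this order after their values were seen, and for genes with several isoforms the order depends on the merged exon length used.

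**Figure D1:**
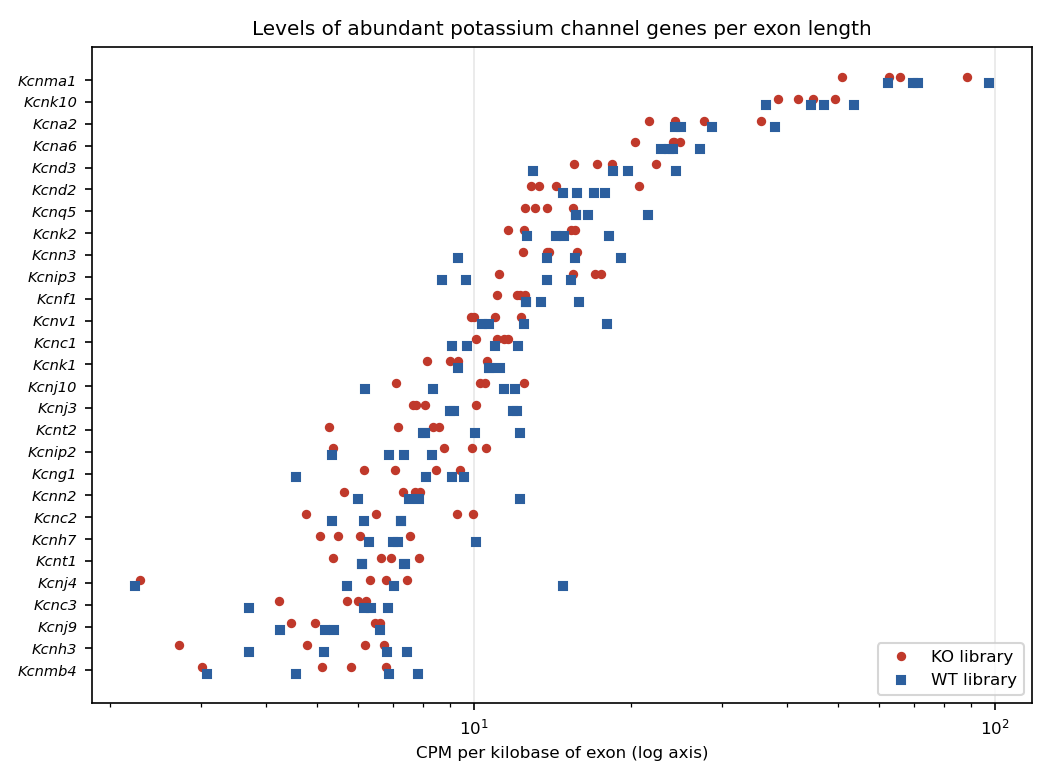
CPM per kilobase of exon (log axis) of 28 of the 30 potassium channel genes with the highest mean over the 8 libraries, 1 point per library, KO as circles and WT as squares. Kcnma1 is highest at a mean of 71.1. The KO and WT means of each gene lie close together relative to the range between genes, while single libraries of some genes spread widely.

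The member with the highest mean CPM over the 8 libraries is taken here as the leader of its subfamily. CPM does not correct for exon length, so this marks the most counted gene and not the highest level. Per kilobase Kcna2 (28.1) stood above Kcna6 (23.9), and Kcnab2 (3.75), named after its value was seen, above Kcnab1 (2.53). The leaders by CPM included Kcnd3 (179), Kcna6 (142), Kcnh7 (104) and Kcnc1, a fast delayed rectifier (98.3), among the voltage-gated pores. Kcnn3, a small-conductance calcium-activated channel (43.9), Kcnt2 (53.1) and Kcnj10, the Kir4.1 channel known from glia (53.0), led theirs, as did the silent subunits Kcnf1 (61.4), Kcnv1 (53.3), Kcng1 (35.2) and Kcns2 (12.5). Those of the auxiliary subunits were Kcnip3, a calcium-binding Kv4 partner (48.3), Kcnab1 (21.8), the BK subunit Kcnmb4 (17.9) and Kcne1l (6.61). Kcnu1, a channel best known from sperm, was counted at 9.08, 6.74, 6.75 and 7.91 CPM in KO and 6.59, 6.95, 6.80 and 6.53 in WT. The single member of its own group, Kcnrg, a regulator of Kv assembly, averaged 2.87 CPM, and its span overlaps the gene Trim13.

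At the bottom of the range, 10 members averaged under 1 CPM over the 8 libraries. Just inside the rule were Kcnh6 and Kcnk5, which reached 10 counts in 4 libraries, with 6 to 27 and 5 to 27 counts per library, and Kcng2 and Kcnj14, which did so in 5. Just outside were Kcne4, which reached 10 counts in 3 libraries (3 to 23 counts), and Kcna5, which did so in 2 (3 to 17 counts). Of the 19 genes left out, Kcnk16 and Kcnmb1 had 0 counts in all 8 libraries. At a minimum of 20 counts 68 members remained.

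The main comparison asked how these channel genes differed between KO and WT neurons. No member passed the threshold on the adjusted p (edgeR quasi-likelihood test, Benjamini-Hochberg over all 16272 tested genes, 0.05), where 8 genes, or 0.0492% of all, did. At an unadjusted p under 0.05 there were 18 of 73 members, or 24.7%, against 10.6% of all tested genes. Of these, 16 members (21.9%) had the lower mean in KO, against 5.75% of all genes, and 2 (2.74%) the higher, against 4.87%. The log2 fold change was below 0 for 58 of 73 members, or 79.5%, against 46.2% of all genes, with a median of -0.15 for the members and 0.015 for all. The members ranged from -0.95 for Kcng3 to 0.72 for Kcne1l. limma-voom likewise passed 0 members on the adjusted p with 18 at an unadjusted p under 0.05, and DESeq2 passed 2, Kcnq5 and Kcnh7, where it passed 185 genes, or 1.14% of all.

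The count of members at an unadjusted p under 0.05 moved with the model, as did that of all genes. Without the surrogate variable it was 7 (9.59%, against 2.52% of all genes), with lane as a term 8 (11%, against 2.94%) and with 2 surrogate variables 10 (13.7%, against 12.1%). Within lane A it was 2 of 70 (2.86%, against 0.591%), with a member median of -0.30. In lane A, with 2 libraries per genotype, Nuak1 did not pass the adjusted p either (0.849). Within lane B it was 12 (16.4%, against 11.2%), 8 lower and 4 higher in KO, with 46 of 73 members below 0 and a member median of -0.10. Leaving out the pair KO1 and WT1 gave 9 members (12.3%, against 4.05%), and leaving out WT1 alone also gave 9 (12.3%, against 5.45%). With the strain code as a term it was 3 (4.11%, against 1.91%), of which 2 were among the 18. The share of members was above the share of all genes under each of the 21 alternatives, and the member median stayed between -0.30 and -0.10.

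**Figure D2:**
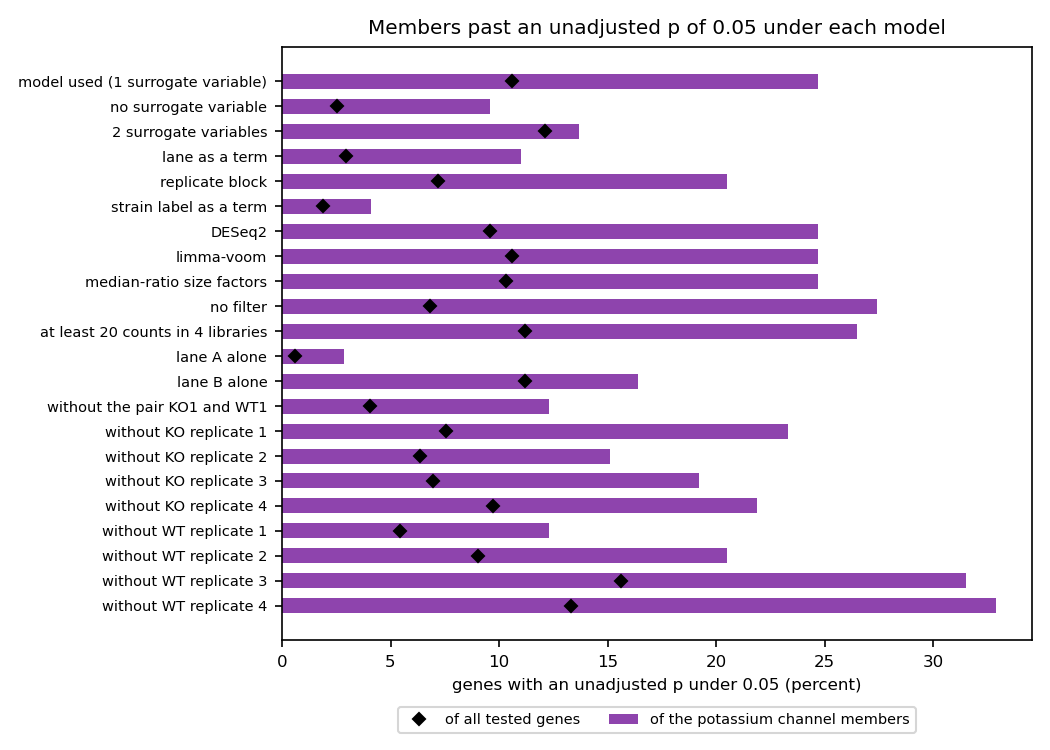
Percentage of genes at an unadjusted p under 0.05 under the model used and 21 alternatives, as bars for the potassium channel members and diamonds for all tested genes. The bars run from 2.86% in lane A alone to 32.9% without WT4, and each ends to the right of its diamond, by the least (13.7% against 12.1%) with 2 surrogate variables.

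Lower values in KO were spread over the 6 pore and silent classes, and the auxiliary subunits were the class with both higher-in-KO members. Of 53 pore-forming members, 13 were at an unadjusted p under 0.05, all with the lower mean in KO, with a median log2 fold change of -0.16. The class medians were -0.12 for the Kv1 to Kv4 pores (14 members), -0.23 for the Kv7 and EAG-family pores (12), -0.23 for the calcium- or sodium-activated pores (7), -0.44 for the Kir channels (10), -0.10 for the K2P channels (10), -0.20 for the silent subunits (8) and -0.01 for the auxiliary subunits (12). The 6 pore and silent medians were below 0 under all 21 alternatives, and the auxiliary median was below 0 in 14 of 21. Their sizes depended on single libraries. The calcium- or sodium-activated median was -0.08 without KO1, -0.11 without WT1 and -0.05 without both, the Kir median -0.28 and the Kv7 and EAG-family median -0.14 without WT3, and the Kv1 to Kv4 median -0.17 without WT4. The K2P median was -0.02 without KO4 and -0.06 without KO2. In summed CPM the members together gave 3485 ± 310 in KO and 3728 ± 412 in WT (SD, n = 4), and these ranges overlapped. In bulk RNA, fewer cells of a type and less RNA per cell cannot be told apart.

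**Figure D3:**
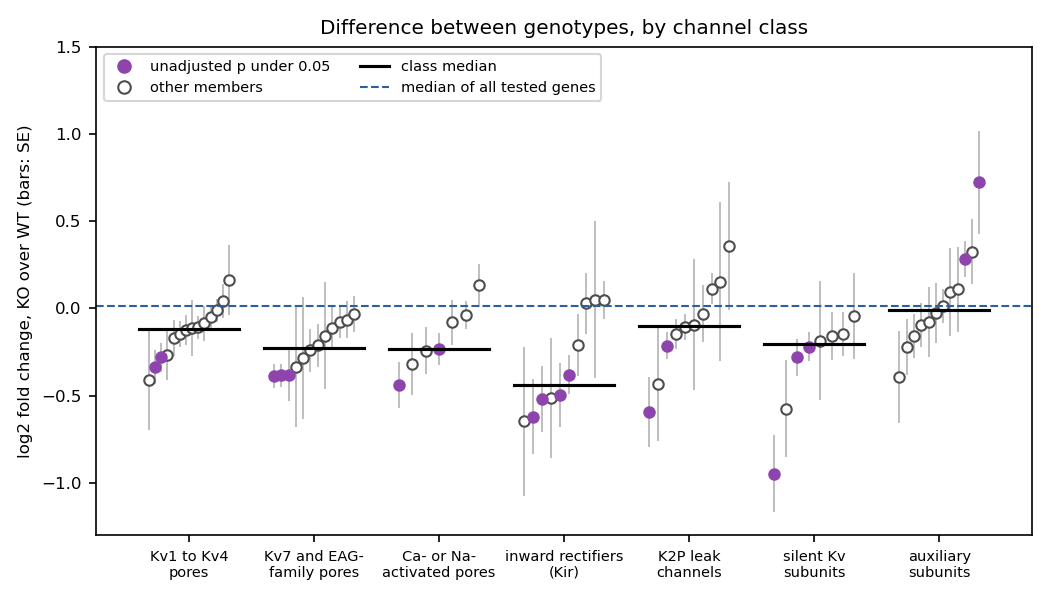
Log2 fold change (KO over WT) of each member by channel class, with its SE; filled points have an unadjusted p under 0.05, black lines are class medians and the dashed line is the median of all tested genes (0.015). All 12 Kv7 and EAG-family pores and all 8 silent subunits lie below 0, while the auxiliary subunits lie on both sides.

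In the Kv7 and EAG-family class all 12 members had a log2 fold change below 0, and Kcnq5, Kcnh7 and Kcnh8 were at an unadjusted p under 0.05. Kcnq5 (ENSMUSG00000028033), an M-current subunit, was counted at 119.5, 107, 96.7 and 101 CPM in KO1 to KO4 and at 167, 128, 121 and 121 CPM in WT1 to WT4, the order used for all such lists. All KO libraries lay below all WT libraries, with a gap from the highest KO (KO1) to the lowest WT that is small beside the spread within either genotype. Non-overlap of this kind, with KO lower, was found in 3 members (Kcnq5, Kcng3 and Kcnf1) and in 0.86% of all tested genes, and with KO higher in 0 members and 1.54% of all. Without KO1 it was found in 7 members with KO lower and 3 with KO higher, against 2.45% and 4.71% of all genes. The means of Kcnq5 were 106 ± 9.90 and 134 ± 21.9 CPM (SD, n = 4 each), a log2 fold change of -0.38 ± 0.06 with an adjusted p of 0.125, or 23.4% lower in the model. WT1 was far above the other WT libraries, and without it the log2 fold change was -0.34. It was -0.41 within lane A and -0.36 within lane B, and over the alternatives it stayed between -0.43 and -0.32, with adjusted p from 0.000531 (DESeq2) to 1.

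Kcnh7 (ENSMUSG00000059742), an ERG-type channel, was counted at 115, 92.1, 83.6 and 77.3 CPM in KO and 154, 95.7, 109 and 107 CPM in WT. KO2 to KO4 lay below every WT library and KO1 within the WT range, so the genotypes overlapped. Its log2 fold change was -0.39 ± 0.07 (adjusted p = 0.139), with -0.48 in lane A and -0.27 in lane B. The span of Kcnh7 overlaps the protein-coding gene Gca, and that of Kcnb2, described below, the protein-coding gene Gm51415. Whether the counting used strand is not given in the sources used here. Kcnh8, an ELK-type channel, was counted at 3.25, 2.54, 2.05 and 2.30 CPM in KO and 3.39, 2.75, 3.40 and 3.08 in WT, low values with overlapping ranges and a log2 fold change of -0.38 ± 0.15. Kcnq3 had 241, 217, 189 and 180.5 CPM in KO and 430.4, 197, 178 and 192 in WT, where WT1 alone stood well above the rest, with a log2 fold change of -0.24 ± 0.12. Without the pair KO1 and WT1 that value was 0.011, and it was -0.57 in lane A and -0.0053 in lane B.

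Among the Kv1 to Kv4 pores 12 of 14 members were below 0, and Kcnb2 and Kcna4 were at an unadjusted p under 0.05. Kcnb2, a delayed rectifier, had 57.6, 46.3, 44.4 and 43.1 CPM in KO and 76.6, 56.4, 44.6 and 48.6 in WT. KO1 and WT1 were the highest library of their genotype, and the ranges overlapped (-0.28 ± 0.08, adjusted p = 0.337). Kcna4, an A-type channel of axons, had 16.4, 15.7, 17.5 and 14.5 CPM in KO and 21.1, 18.2, 22.1 and 17.5 in WT. Only KO3 reached the WT range, and the log2 fold change of -0.34 ± 0.10 (adjusted p = 0.341) was -0.50 in lane A and -0.17 in lane B. The leaders of the Kcnd, Kcna and Kcnc subfamilies differed less. Kcnd3 had a log2 fold change of -0.08 ± 0.10, Kcna6 of -0.11 ± 0.07 and Kcnc1 of 0.04 ± 0.10. All 5 Kcna and all 3 Kcnd members were below 0, against 2 of 4 Kcnc members, and among these 12 genes Kcna4 alone was at an unadjusted p under 0.05.

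Of the 7 calcium- or sodium-activated pores, 6 were below 0, and Kcnt2 and Kcnma1 were at an unadjusted p under 0.05. Kcnt2, a sodium-activated channel also called Slick, had 53.8, 52.3, 44.9 and 33.2 CPM in KO and 77.0, 50.1, 63.2 and 50.6 in WT. Its log2 fold change of -0.44 ± 0.13 (adjusted p = 0.356) came to -0.72 in lane A and -0.12 in lane B. Kcnma1 had 421, 313, 298 and 243 CPM in KO and 464, 339, 331 and 297 in WT. KO1 and WT1 were both above the other 6 libraries here, KO4 was the only library below the WT range, and the log2 fold change was -0.23 ± 0.09 (adjusted p = 0.418). Kcnn3 differed by -0.08 ± 0.13 on the log2 scale, and Kcnu1, the 1 member of the class above 0, by 0.13 ± 0.12.

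The Kir channels had the lowest class median, also under 20 of the 21 alternatives, and 4 of 10 members, Kcnj3, Kcnj16, Kcnj6 and Kcnj12, were at an unadjusted p under 0.05, all with the lower mean in KO. With 2 surrogate variables the Kir median was -0.26. The strain term, which compares KO4 alone with WT2 and WT4, gave a Kir median of -0.14. That was above those of the calcium- or sodium-activated (-0.27), Kv1 to Kv4 (-0.24), K2P (-0.24) and Kv7 and EAG-family pores (-0.15). Kcnj3 and Kcnj6 encode subunits of the G protein-gated channel (GIRK) that transmitters open through their receptors. Kcnj3 had 52.7, 40.3, 42.1 and 39.8 CPM in KO and 62.0, 47.8, 63.0 and 47.0 in WT, with KO1 alone inside the WT range and a log2 fold change of -0.38 ± 0.11 (adjusted p = 0.338). Kcnj6 had 5.09, 3.67, 4.30 and 4.65 CPM in KO and 7.07, 6.08, 7.30 and 4.13 in WT, where WT4 was as low as the KO libraries (-0.52 ± 0.19, and -0.17 with the strain code as a term). Kcnj12, a Kir2 channel, had 1.41, 2.34, 3.11 and 3.95 CPM in KO and 2.62, 4.29, 4.05 and 3.79 in WT. Here WT1 fell within the KO range and KO3 and KO4 within the WT range (-0.50 ± 0.19). The strain term, with KO4 alone against WT2 and WT4, gave -0.05.

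Kcnj16 encodes Kir5.1, which pairs with the Kir4.1 subunit of Kcnj10. Kcnj16 had 4.17, 5.06, 4.03 and 3.02 CPM in KO and 7.07, 6.34, 6.86 and 3.84 in WT, with WT4 inside the KO range and a log2 fold change of -0.62 ± 0.22 (adjusted p = 0.385). Its difference was -0.98 in lane A and -0.27 in lane B. Kcnj10 had 67.6, 56.9, 55.5 and 38.4 CPM in KO and 64.8, 61.9, 33.4 and 45.2 in WT, with overlapping ranges and a log2 fold change of 0.03 ± 0.17. KO4 and WT3 were lowest for Kcnj10 within their genotype and also had the lowest summed astrocyte markers, 978 and 1030 CPM.

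Among the 10 K2P leak channels 7 were below 0, and Kcnk4 and Kcnk1 were at an unadjusted p under 0.05. Kcnk4, the mechanosensitive TRAAK channel, had 0.805, 1.79, 1.75 and 1.78 CPM in KO and 1.57, 2.37, 3.48 and 1.76 in WT. KO1 was far below the other KO libraries, which all lay inside the WT range (-0.59 ± 0.20, adjusted p = 0.369), and without WT1 the log2 fold change was -0.37. Kcnk1, the TWIK1 channel, had 18.7, 20.8, 24.4 and 21.5 CPM in KO and 21.5, 25.9, 24.8 and 24.6 in WT, a log2 fold change of -0.21 ± 0.08. Kcnk9, the most counted K2P gene, had 314, 189, 197 and 148 CPM in KO and 252, 192, 214 and 149 in WT. KO1 was its highest library and KO4 its lowest, and with -0.03 ± 0.17 no difference was detectable.

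All 8 silent Kv subunits were below 0, and Kcng3, Kcnf1 and Kcnv1 were at an unadjusted p under 0.05. These subunits modify Kv2 channels. Kcng3 (ENSMUSG00000045053), on chr17:83574023-83631995, had 0.575, 0.607, 0.767 and 0.544 CPM in KO and 1.09, 1.40, 1.24 and 0.974 in WT. All KO libraries were below all WT libraries, with a clear gap between KO3 and WT4, at 20 to 94 counts per library. The means were 0.623 ± 0.0995 and 1.17 ± 0.185 CPM (SD, n = 4 each), a log2 fold change of -0.95 ± 0.22 (adjusted p = 0.248), or 48.1% lower in the model. It was -1.07 in lane A and -0.87 in lane B, and stayed between -1.16 (strain term, KO4 alone against WT2 and WT4) and -0.84. The lowest adjusted p of Kcng3 was 0.0988 (without WT3), and DESeq2 gave it none.

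Kcnf1 (ENSMUSG00000051726) had 58.7, 60.0, 58.0 and 53.1 CPM in KO and 64.4, 60.3, 76.3 and 60.2 in WT, with means of 57.5 ± 3.02 and 65.3 ± 7.60 (SD, n = 4 each). The genotypes did not overlap, but KO2 and the lowest WT libraries all but touched. Its log2 fold change was -0.22 ± 0.08 (adjusted p = 0.406), -0.35 in lane A and -0.10 in lane B, and -0.14 without WT3. Kcnv1 had 55.5, 44.4, 45.0 and 49.3 CPM in KO and 81.0, 56.1, 48.1 and 46.6 in WT, where WT1 was highest (-0.28 ± 0.11, and -0.08 with the strain term). Kcng1 and Kcns2, the leaders of their subfamilies, were at -0.05 ± 0.25 and -0.16 ± 0.14. In summed CPM the silent subunits gave 162, 155, 161 and 162 in KO and 209, 178, 172 and 162 in WT, so that only WT4 fell among the KO values.

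The 12 auxiliary subunits were divided, 6 below 0 and 6 above, and both members with the higher mean in KO at an unadjusted p under 0.05 were here. Kcnip2, a calcium-binding partner of Kv4 pores, had 18.6, 34.5, 36.7 and 30.5 CPM in KO and 18.6, 23.9, 28.9 and 25.5 in WT. KO1 and WT1 were equally low, and the other KO libraries exceeded all WT libraries. Its log2 fold change was 0.28 ± 0.10 (adjusted p = 0.401), but 0.04 in lane A against 0.46 in lane B. Kcnip3 of the same subfamily had 39.7, 60.7, 62.1 and 54.9 CPM in KO and 34.3, 49.1, 30.8 and 54.5 in WT, with overlapping ranges (0.33 ± 0.19). The Kv4 pores that these subunits bind, Kcnd1 to Kcnd3, were all below 0, and none was at an unadjusted p under 0.05. Kcne1l, a subunit of the Kcne group, had 7.76, 8.47, 12.4 and 4.62 CPM in KO and 4.26, 5.52, 3.55 and 6.29 in WT, with KO4 inside the WT range (0.72 ± 0.30, adjusted p = 0.447). With the strain code as a term its log2 fold change was -0.37, but there KO4 alone stands for KO. Kcnab1 was at -0.22 ± 0.16 and Kcnmb4 at -0.09 ± 0.13.

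**Figure D4:**
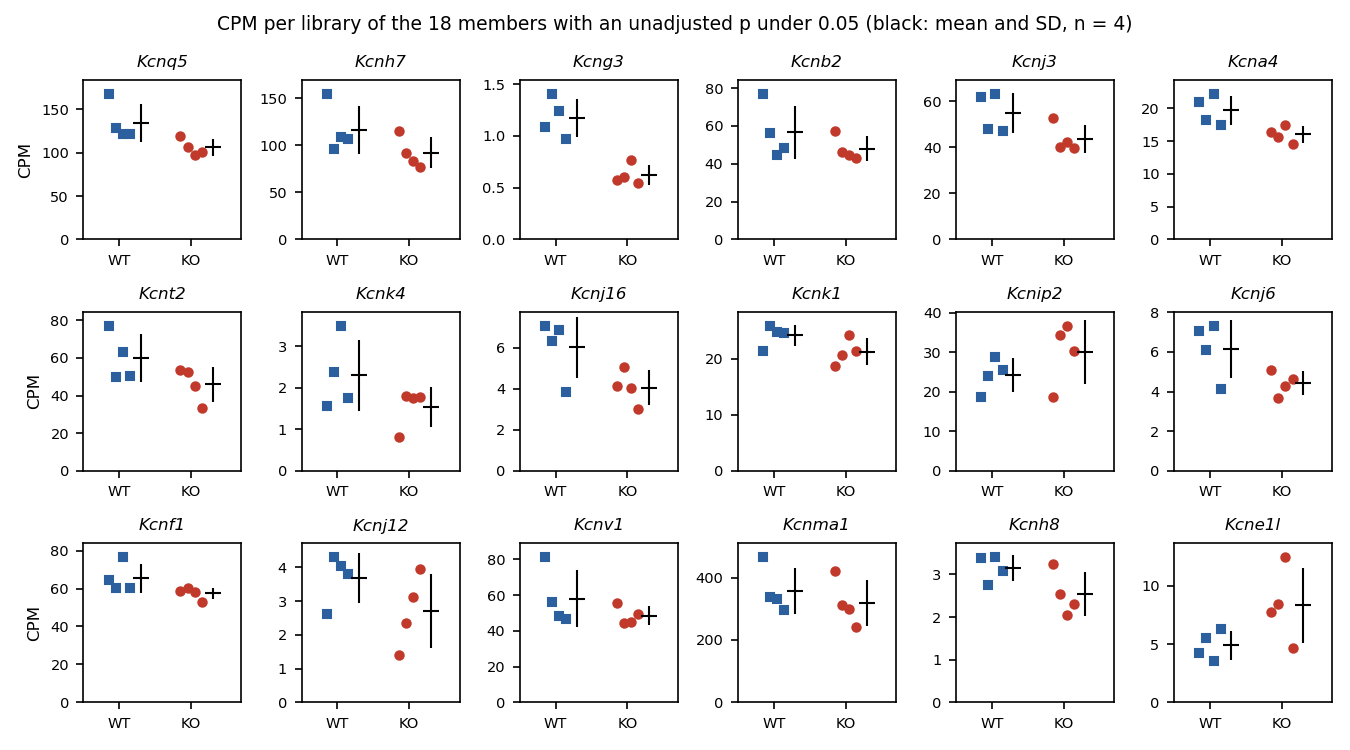
CPM of each library (WT squares, KO circles, replicates 1 to 4 from left to right, axes from 0) for the 18 members with an unadjusted p under 0.05, with the mean and SD (n = 4). Kcng3 shows a clear separation, with KO libraries at 0.544 to 0.767 CPM and WT libraries at 0.974 to 1.40 CPM, and Kcnip2 and Kcne1l are the 2 with the higher mean in KO.

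Libraries also varied within each genotype. The median coefficient of variation of the members was 18.9% among KO and 24.9% among WT libraries. KO1 and WT1 were both below the other 6 libraries in 16 members and both above in 14, against 28.8% and 20.5% of all tested genes, and in the remaining 43 they were not set apart. The members with both above included Kcnma1, Kcnk9, Kcnq3, Kcnd3 and Kcna6, and those with both below included Kcnip2, Kcnmb4 and Kcnk4. The Kv1 to Kv4 class had 5 members of the first kind and 2 of the second.

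**Figure D5:**
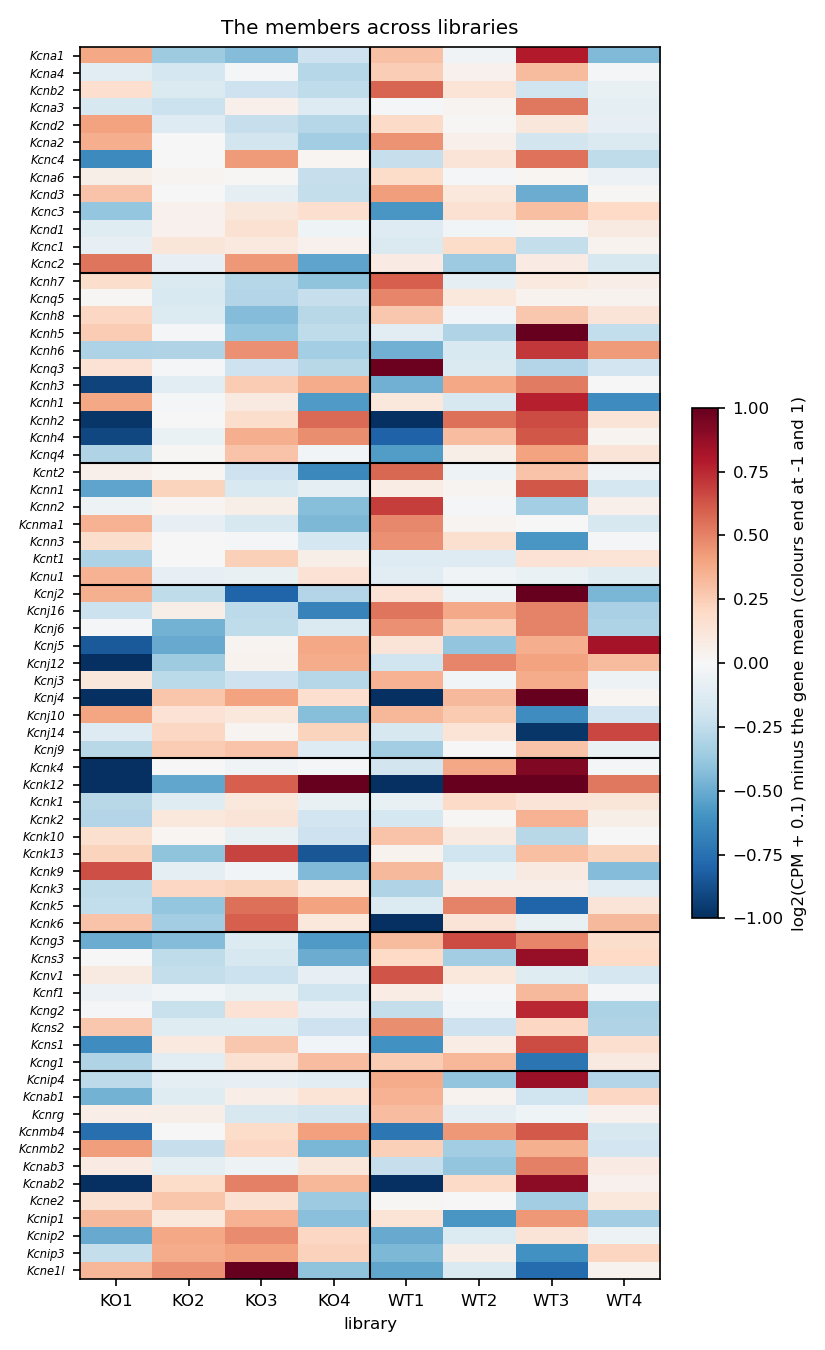
Log2(CPM + 0.1) of 71 of the 73 members in each library, centred on the gene's mean (colour scale from -1 to 1), ordered by class and within a class by the fold change. The columns KO1 and WT1 share their pattern across genotypes, with both below all other libraries in 16 of all 73 members and both above in 14. Over all tested genes the shares were 28.8% and 20.5%. The upper rows of most classes are redder in WT.

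Channel genes can be very long, and length in the genome was not part of the rule. Of the 73 members, 22 span over 100 kb on GRCm38, a limit chosen after the values were seen. In these 22 the median log2 fold change was -0.24, 20 were below 0, and 8 (36.4%) were at an unadjusted p under 0.05 with the lower mean in KO. Of all tested genes of that span, 12.9% were, with a median of -0.05. In the 51 shorter members the median was -0.11 and 8 (15.7%) were lower at that p, against 4.30% and a median of 0.03 for all shorter genes (positions were known for 86.6% of tested genes). In both ranges the member median lay below that of all genes of that span, and the median of all long genes lay below that of all short ones. Without the pair KO1 and WT1 the lower counts were 6 of 22 (27.3%) and 2 of 51 (3.92%), against 6.41% and 1.6% of all genes. Within lane B, 5 of the 22 long members (22.7%) were lower and 2 (9.09%) higher at that p, against 12.7% and 6.55% of all long genes. Of the 51 shorter members 3 (5.88%) were lower there and 2 (3.92%) higher, near the 4.2% and 5.63% of all shorter genes.

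Potassium channels work with scaffolds, transport partners and related channels that carry no Kcn symbol. Of 40 such genes counted here 37 were tested, and 0 passed the adjusted p (edgeR). At an unadjusted p under 0.05 there were 5 with the lower mean in KO (13.5%, against 5.75% of all genes) and 0 with the higher, and 25 of 37 were below 0, with a median of -0.07. Ank2 and Ank3 encode ankyrins, which anchor channels to the spectrin skeleton. Ank3 had 884, 863, 857 and 871 CPM in KO and 1063, 1074, 852 and 990.0 in WT, with KO libraries that varied little and WT3 below them (-0.24 ± 0.09). Ank2 had 1821, 1611, 1575 and 1450.0 CPM in KO and 2161, 1876, 1686 and 1652 in WT (-0.24 ± 0.08), with KO1 alone inside the WT range. Lgi1 and Adam23, a secreted protein and a receptor of the complex found with axonal Kv1 channels, were at -0.29 ± 0.11 and -0.18 ± 0.08. Lrrc55, a BK auxiliary subunit, was at -0.25 ± 0.09, with 52.9, 46.8, 48.3 and 47.7 CPM in KO and 63.7, 56.6, 44.3 and 61.9 in WT. Their adjusted p-values ran from 0.385 to 0.447.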

How the data were processed

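Poly-A RNA of 8 libraries, 4 Nuak1 KO and 4 WT, was sequenced, and the authors deposited 1 table of raw counts per Ensembl gene. Per the labels and methods, reads were trimmed with Cutadapt 1.10, aligned to mm10 with STAR 2.5.3a and counted with HTSeq 0.6.1p1, and bcl2fastq 2.17.1.14 and Bowtie2 2.2.8 are also named. The counting's strand setting is not given in the sources used here, and the read length and instrument in the labels differ from those in the methods. Groups and replicate numbers came from the labels.

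The 23260 of 32726 identifiers that matched a symbol gave 94 Kcn genes, 92 of them protein coding. Counts were filtered with filterByExpr, scaled by TMM and fitted in edgeR 4.0.16 (R 4.3.3, robust quasi-likelihood test) with genotype and 1 surrogate variable from sva 3.50.0, with Benjamini-Hochberg adjustment over 16272 genes at 0.05; SE is the fold change divided by the root of F. DESeq2 1.42.0 and limma 3.58.1 were alternatives. CPM used each library's total, so that depth, 31247078 to 67155004 counts, sets the precision. P-values weigh the genotype difference against the spread between these libraries that the surrogate variable leaves. Positions came from RefSeq GRCm38.p6, and exon lengths and coding sequences from GENCODE vM1 by gene identifier; the genome given was of another build and was not used. Named genes were those at an unadjusted p under 0.05 among the members and their partners, the highest of each subfamily by CPM, and those next to the count minimum; some are not reported here. The members and lists were chosen with earlier results of these data known.

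Deviations from the genotype means correlated at 0.800 between KO1 and WT1, 0.012 for number 2, 0.249 for number 3 and 0.0023 for number 4. Since not every pair was above 0.1, the numbers were not taken as pairs.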

Additional observations from a re-analysis of the deposited data

Results flagged for a closer look

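In 4 of 78 groups of 4 libraries tested (each gene that met the naming rule, within 1 genotype), the highest or lowest library lay far from the other 3 by Dixon's test, where chance gives about 1 in 20, or 3.9. For Kcnq5, WT1 was at 166.9 CPM and the other WT libraries at 121 to 128 CPM. For Kcnk4, KO1 was at 0.805 CPM and the other KO libraries at 1.75 to 1.79 CPM. For Kcna6, a Kv1 channel, KO4 was at 120.8 CPM and the other KO libraries at 143 to 147 CPM. For Kcns2, a silent subunit, KO1 was at 14.9 CPM and the other KO libraries at 10.7 to 11.3 CPM. KO1 and WT1 are the libraries that stand apart on the first principal component.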

How the results depend on the processing

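Of 501 values of single genes under alternatives, 492 kept their direction and their side of the threshold on the adjusted p. Of these genes Nuak1 alone was past that threshold in the model used, so for the others the count says little about stability. One value, Kcne1l at -0.37 with the strain code as a term, reversed, and there KO4 alone stands for KO. Of all genes, those past the adjusted p numbered 4 without a surrogate variable, with 2 or with lane as a term, 3 with the replicate block or without the pair KO1 and WT1, 185 by DESeq2, 45 without a filter, 0 in lane A and 99 in lane B, and 3 to 91 with 1 library left out. Members past it numbered 2 by DESeq2, 2 without a filter (Kcnq5 and Kcnh7 in both), 1 in lane B (Kcnip1, named after its value was seen), and 0 to 2 with 1 library left out, 2 without WT3. Members at an unadjusted p under 0.05 numbered 7 without a surrogate variable, 10 with 2, 8 with lane, 2 in lane A and 9 without the pair, with the shares given above. With 1 library left out they numbered 9 (without WT1, 12.3% against 5.45% of all genes) to 24 (without WT4, 32.9% against 13.3%). Without KO2 they numbered 11 (15.1%, against 6.36%). The member median was -0.30 in lane A. Members whose CPM did not overlap numbered 3 to 10 with 1 library left out, 10 without KO1 (13.7%, against 7.15% of all genes), 6 without KO3 (8.22%, against 3.48%) or WT4 (8.22%, against 5.44%), 5 without KO4 (6.85%, against 5.4%) and 3 without WT3 (4.11%, against 5.91%). Partner genes past the adjusted p numbered 0 to 1, Lrrc55 without WT3. With the replicate block, 15 members were at an unadjusted p under 0.05 (20.5%, against 7.17% of all genes), 0 passed the adjusted p, and the median was -0.16; of the KO libraries, 1 of 4 correlated best with the WT library of its own number. The causes of these changes were not tested. Depth limits the 10 members under 1 CPM most. DESeq2 gave no adjusted p for Kcng3.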
